A study of Mus musculus with 6 samples.

Results

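The 9 genes described here encode parts of the actin cytoskeleton and 1 intermediate filament protein: the tropomyosins Tpm1, Tpm2 and Tpm4, the scaffold proteins Palld and Pdlim7, the α-actinins Actn1 and Actn4, the myosin regulatory light chain Myl9, and Vim (vimentin). They were 9 of the 31055 features of the deposited matrix and were chosen from their levels in these cells, so that the contrasts between cell groups given below describe the choice and were not tested. The matrix held single-cell RNA-seq counts of neoplastic cells sorted from lung tumors of 6 mice, made with 10x Genomics 3′ v3 chemistry, which counts molecules by unique molecular identifiers (UMIs). All mice carried KrasLSL-G12D, Lkb1XTR/XTR and Rosa26LSL-tdTomato, received Lenti-Cre by the trachea, and were treated for 2 weeks after 20 weeks of tumor growth. The 3 Restored mice (2 male, 1 female) carried Rosa26 FLPo-ERT2 and received tamoxifen in 4 mg doses, which deletes the gene trap in Lkb1 (Stk11). Of the 3 NonRestored mice, 1 male without FLPo-ERT2 received tamoxifen, 1 male without FLPo-ERT2 received vehicle, and 1 female with FLPo-ERT2 received vehicle. Lkb1 was therefore trapped by Cre in the tumor cells of every mouse, and nothing in the files used here ties a cell to a mouse, so the pooled matrix counted as 1 sample and the Restored and NonRestored mice could not be compared. The sort had kept tdTomato-positive cells and excluded dead cells and cells carrying CD45, CD31, F4/80 or Ter119.

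Tropomyosins are coiled-coil dimers that lie along actin filaments and set which myosins and severing proteins can reach them, while α-actinins cross-link filaments and palladin and PDZ-LIM proteins dock on α-actinin along stress fibers. Myl9 is a light chain of the contractile myosin II of smooth muscle and stroma, and vimentin is the usual intermediate filament of mesenchymal cells, in place of the keratins of epithelium. In the alveolus, cuboidal alveolar type II (ATII) cells make surfactant, and flat alveolar type I (ATI) cells carry out gas exchange. Cells passing between these states are known for high Krt8 and for spread shape.

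Of 16017 cells, 12183 had at least 500 genes and at most 20% mitochondrial UMIs, and their median depth was 19348 UMIs. Cells were gated by UMIs per 10000 of the cell's own total. The ATII gate (Sftpc of at least 500, Hopx under 2, Krt8 plus Krt18 under 50) held 6975 cells, the ATI gate (Hopx of at least 15, Krt8 plus Krt18 under 50) held 956, the keratin-high gate (Krt8 plus Krt18 of at least 50) held 1183, and the fibroblast gate (at least 10 UMIs of Col1a1, Col1a2, Col3a1 and Dcn together) held 236. Their median depths were 21660, 11797, 23490 and 16480 UMIs. The gates carried the markers of their names: Ager, an ATI membrane receptor, stood at 5902 counts per 1000000 UMIs (CPM) in the ATI gate against 841 in the ATII gate, and the tight junction gene Cldn4 at 428 CPM in the keratin-high gate against 4.9 in the ATII gate. The fibroblast gate was mixed mesenchyme, since it also held the smooth muscle genes Acta2 (1240 CPM) and Des (167 CPM). In the keratin-high gate Pdgfra and Dpt, 2 of the 9 fibroblast markers, were at 0, and the list summed to 421 CPM, of which Fn1 made up 411, against 50295 CPM in fibroblasts. The smooth muscle list summed to 20.9 CPM there, against 2.95 CPM in the ATII gate. Of the 20.9 CPM, Tagln made up 14.9 and Rgs5 3.10, while Acta2 was at 0.23 CPM. The endothelial list summed to 2.02 CPM in the keratin-high gate. The mesothelial list summed to 125 CPM in the keratin-high gate, all of it Msln, against 120 CPM in the fibroblast gate, where all 4 of its genes were found.

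Short promoter stretches are shown for the members with a match to a motif of factors known to drive cytoskeletal genes: the CArG box bound by SRF, GGAATG bound by TEAD factors, and TGANTCA bound by AP-1, each searched on both strands in windows from 250 bases before to 50 bases after each RefSeq start (GRCm38.p6). All 9 members had a window, 11 in all, since Palld has 3 starts, and 5 windows of 4 members held a match. Among all 32851 windows, the CArG box was in 1.63%, GGAATG in 14.7% and TGANTCA in 7.81%. The share of all windows with any of these motifs was not counted. The only CArG box in a member window was that of Myl9, 161 bases before the start (stretch chr2:156775278-156775337, plus strand). The other stretches lie on the minus strand, at chr9:67049239-67049294 for Tpm1, chr8:61760146-61760201 for start 2 of Palld, chr8:61591162-61591218 for its start 3, and chr7:28962470-28962573 for Actn4. They are printed 5′ to 3′ along the gene, with the matched letters in capitals (CATTCC is GGAATG read on the other strand), and no matches overlapped.
Myl9: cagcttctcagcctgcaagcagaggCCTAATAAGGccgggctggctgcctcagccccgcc
Tpm1: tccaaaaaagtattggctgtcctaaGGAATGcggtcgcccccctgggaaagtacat
Palld, start 2: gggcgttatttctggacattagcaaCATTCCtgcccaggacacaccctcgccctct
Palld, start 3: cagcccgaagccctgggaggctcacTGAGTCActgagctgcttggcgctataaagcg
Actn4: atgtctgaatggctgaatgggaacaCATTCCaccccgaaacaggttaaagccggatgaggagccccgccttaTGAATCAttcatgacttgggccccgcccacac
A match is a run of letters and not a measured binding site, and 3′ counts do not tell which Palld start was used.

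All 3 tropomyosins were highest in the keratin-high gate, followed by fibroblasts, ATI and ATII cells, with no overlap between the 95% counting intervals of neighbors in that order. Tpm1 (chr9:67022590-67049406, minus strand), which coats stress fibers, stood at 334 CPM in ATII cells, 668 in ATI cells, 1449 in keratin-high cells and 1069 in fibroblasts. Tpm2 (chr4:43514711-43523765, minus strand), a muscle and stress fiber form, stood at 7.07, 44.4, 323 and 255 CPM in the same order. Tpm4 (chr8:72134975-72153142, plus strand), a cytoplasmic form, stood at 128, 216, 457 and 363 CPM. The contrast between keratin-high and ATII cells was thus widest for Tpm2, which was 45.7-fold higher (95% interval 43.0 to 48.7), against 4.34-fold (4.29 to 4.39) for Tpm1 and 3.56-fold (3.49 to 3.64) for Tpm4. Tpm2 was also the tropomyosin that most separated ATI from ATII cells, at 6.29-fold (5.68 to 6.95), where Tpm1 was 2.00-fold (1.96 to 2.05) and Tpm4 1.69-fold (1.62 to 1.76). The size for Tpm2 rested on the gates, at 4.14-fold with Hopx of at least 30 for ATI and 4.30-fold with keratin limits of 100 and 25. Tpm2 UMIs were found in 8.30% of ATII, 22.1% of ATI and 73.2% of keratin-high cells. After thinning of each cell to 5000 UMIs these shares were 2.48%, 12.0% and 54.1%, against 1.43% of 70 thinned myeloid cells (1.32% before thinning, median depth 24384 UMIs), in which the gene should be lacking.

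Because family members are counted side by side in the same cells, their shares show a change in make-up. Tpm2 took 1.01% of all UMIs of Tpm1 to Tpm4 in ATII cells, 3.44% in ATI cells, 12.2% in keratin-high cells and 13.4% in fibroblasts. Tpm3, the fourth tropomyosin gene and not a member, ran the other way, from 32.7% in ATII and 28.1% in ATI to 16.2% in keratin-high cells and 11.3% in fibroblasts, although its own level was 1.89-fold higher in keratin-high than in ATII cells. The share of Tpm1 went from 47.9% in ATII cells to 54.4% in keratin-high cells and 56.2% in fibroblasts, and that of Tpm4 lay between 16.8% and 19.1%. The shares of Tpm1, Tpm2 and Tpm3 in keratin-high cells were nearer to those in fibroblasts than to those in ATII cells.

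**Figure D1:**
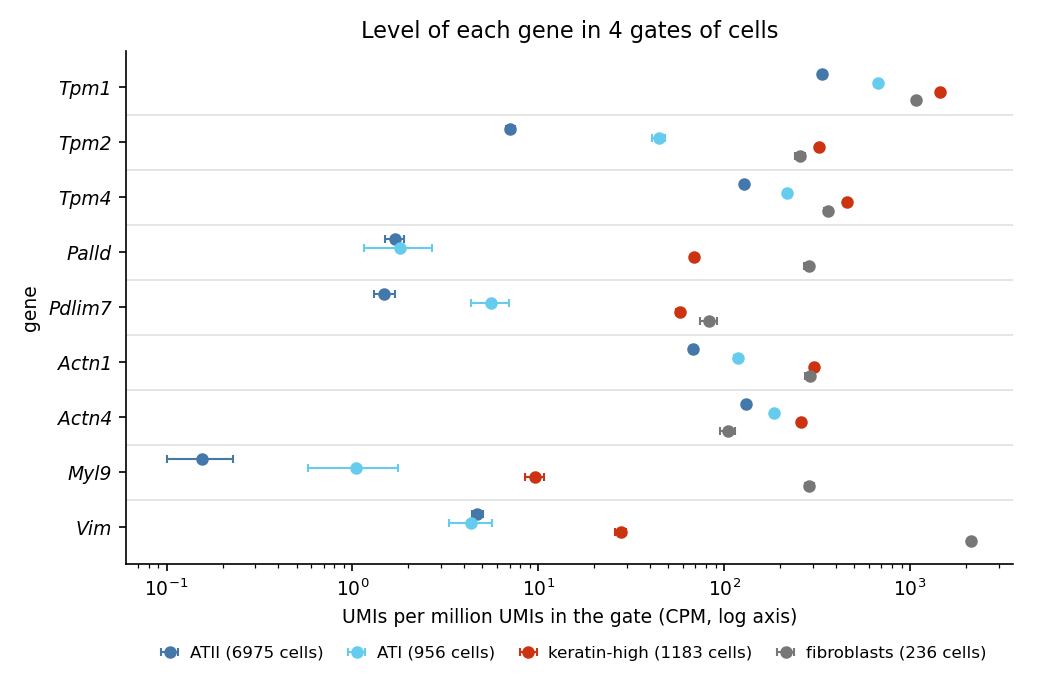
Level of each member (counts per 1000000 UMIs summed over a gate, log axis) in the ATII, ATI, keratin-high and fibroblast gates, with exact Poisson 95% intervals that cover counting error only. Keratin-high cells are above ATII cells for all 9 genes, and fibroblasts are highest for Palld, Pdlim7, Myl9 and Vim but lowest for Actn4.

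Palld and Pdlim7, the scaffold genes, were low in ATII and ATI cells and far higher in keratin-high cells and fibroblasts. Palld (chr8:61511433-61902690, minus strand), which encodes the actin-bundling protein palladin, was at 1.68 CPM (1.49 to 1.90) in ATII cells, 1.80 (1.15 to 2.68) in ATI cells, 68.8 (65.9 to 71.8) in keratin-high cells and 284 (268 to 300) in fibroblasts. Its level did not differ beyond counting error between ATII and ATI cells, while it was 40.9-fold higher (36.0 to 46.5) in keratin-high than in ATII cells and 38.3-fold higher (25.6 to 59.8) than in ATI cells. The latter rested on 24 UMIs in ATI cells and, from 5.26 on the log2 scale, came to 4.39 with cells thinned to 5000 UMIs and to 6.59 (96.2-fold) with keratin limits of 100 and 25. Pdlim7 (chr13:55495795-55513676, minus strand), a PDZ-LIM protein of stress fibers, was at 1.49 CPM (1.30 to 1.69), 5.55 (4.35 to 6.96), 57.9 (55.2 to 60.6) and 82.8 (74.4 to 91.8) in the same order. It was 39.0-fold higher (34.0 to 44.8) in keratin-high than in ATII cells, and fibroblasts exceeded keratin-high cells by 1.43-fold (1.27 to 1.60) for Pdlim7 but by 4.13-fold (3.85 to 4.43) for Palld. The order of fibroblasts and keratin-high cells for Pdlim7 rested on the gate, since with keratin limits of 100 and 25 the ratio was 0.99. At 5000 UMIs a cell, Palld was found in 0.694% of ATII, 1.19% of ATI, 19.3% of keratin-high and 62.9% of fibroblast-gate cells (2.72%, 2.20%, 43.5% and 80.9% before thinning). It was found in 0 of 70 thinned myeloid cells, with an exact upper limit of 5.13% (2.63% of myeloid cells before thinning). The Pdlim7 shares were 0.679%, 1.90%, 18.3% and 29.4% (2.68%, 5.86%, 43.9% and 60.6% before thinning), and 12.9% in myeloid cells, which held 42.9 CPM of it.

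The α-actinins differed from each other. Actn1 (chr12:80167547-80260371, minus strand), the form of focal adhesions and stress fibers, was at 67.6 CPM in ATII, 118 in ATI, 305 in keratin-high and 288 in fibroblast-gate cells, with overlapping intervals for the last pair. It was 4.51-fold higher (4.39 to 4.64) in keratin-high than in ATII cells. Actn4 (chr7:28893248-28962340, minus strand), the form common in epithelium, was at 131, 185, 257 and 105 CPM, and was the only member for which fibroblasts were below every epithelial gate. Its ratio of keratin-high to ATII cells was 1.96 (1.91 to 2.01), just under the 2-fold line, and the ratio of keratin-high cells to fibroblasts was 2.46. Actn1 accordingly made up 34.0% of α-actinin UMIs in ATII cells, 39.1% in ATI cells, 54.3% in keratin-high cells and 73.4% in fibroblasts. Actn4 overlaps Capn12, which lies on the opposite strand.

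**Figure D2:**
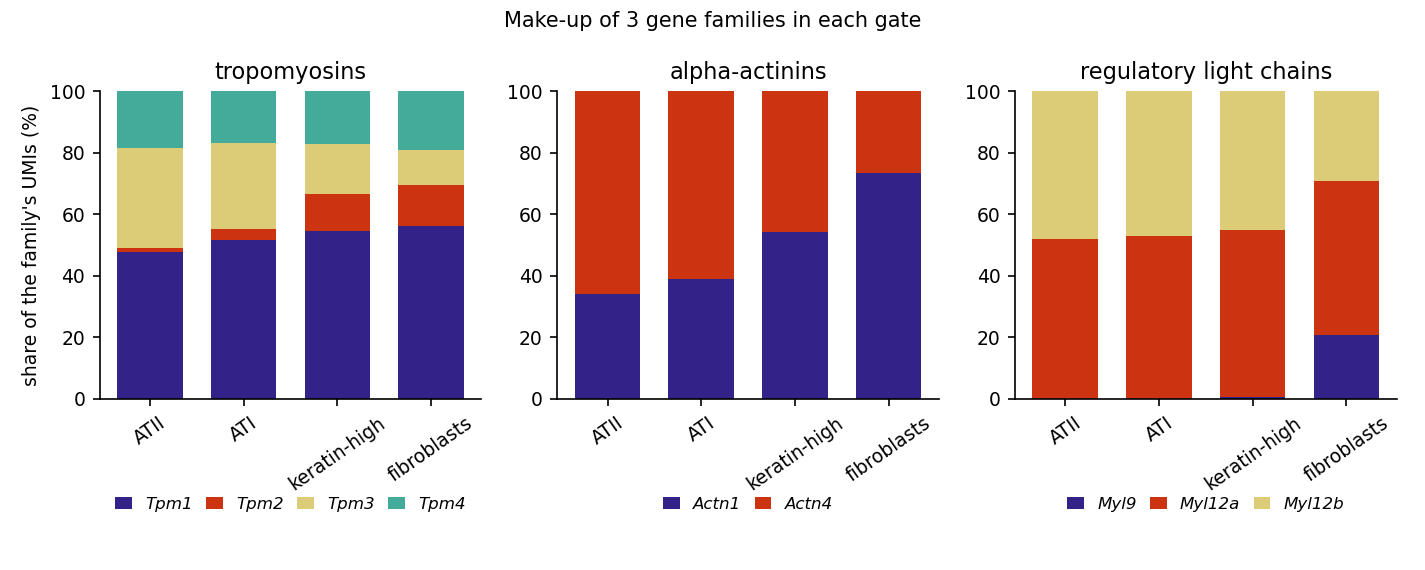
Share of each gene in the UMIs of 3 families (tropomyosins, α-actinins, myosin regulatory light chains) in each gate, stacked to 100%. Tpm2 grows from 1.01% of tropomyosin UMIs in ATII cells to 12.2% in keratin-high cells and Actn1 from 34.0% to 54.3% of α-actinin UMIs, while Myl9 is a visible part only of the fibroblast bar (20.8%).

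Myl9 and Vim set the fibroblasts apart. Myl9 (chr2:156775420-156781658, plus strand) was at 0.15 CPM (25 UMIs) in ATII cells, 1.05 (14 UMIs) in ATI cells, 9.59 (8.52 to 10.8, 294 UMIs) in keratin-high cells and 287 (271 to 303) in fibroblasts. It made up 0.646% of the regulatory light chain UMIs of keratin-high cells and 20.8% of those of fibroblasts, the rest coming from Myl12a and Myl12b. Vim (chr2:13573927-13582826, plus strand) was at 4.71 CPM (4.38 to 5.05) in ATII cells, 4.35 (3.30 to 5.62) in ATI cells, 27.7 (25.9 to 29.7) in keratin-high cells and 2126 (2082 to 2170) in fibroblasts. Fibroblasts thus exceeded keratin-high cells 76.6-fold (71.4 to 82.3) for Vim and 29.9-fold (26.3 to 34.1) for Myl9, where the 3 tropomyosins were lower in fibroblasts than in keratin-high cells. The sizes depended on a few cells and on the gate: Vim was 232-fold and Myl9 67.6-fold without the 1% of cells of each gate with most UMIs of the gene, and 33.2-fold and 13.2-fold with keratin limits of 100 and 25. ATII and ATI cells did not differ in Vim beyond counting error, and 1% of ATII cells held 88.4% of their Vim UMIs. With the cells of the endothelial and myeloid gates left out, the ratio of keratin-high to ATII cells for Vim was 15.2 in place of 5.90, and that of ATI to ATII cells was 1.74 in place of 0.92.

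Counted with a line of 2-fold and a level of at least 10 CPM in either gate, 7 of the 8 members at that level (all but Actn4, with Myl9 under the level) were higher in keratin-high than in ATII cells, where 14.5% of the 8369 genes at that level were, and none was at least 2-fold lower, beside 5.17% of genes. Of these 7, Tpm2, Palld, Pdlim7 and Vim reached 10 CPM in the keratin-high gate alone, so that they had to differ, and the members were chosen on this contrast. The median gene at that level was itself 0.39 higher (log2) in keratin-high cells, Sftpc alone taking 155328 CPM of the ATII gate, and relative to this median the count stayed at 7, against 7.61% of genes. Between ATI and ATII cells 2 of the 5 members at that level, Tpm1 and Tpm2, were at least 2-fold higher, beside 11.5% of genes, and none was at least 2-fold lower, beside 5.52%. Tpm2 was at the level in the ATI gate alone. Tpm1 sat on the line at 2.00-fold, and relative to the median gene, which was 0.38 higher (log2) in ATI cells, it was 1.54-fold and Tpm2 alone was past the line (6.41% of genes). Between keratin-high and ATI cells, where the median gene was 0.01 higher (log2), 7 of 8 members were at least 2-fold higher (6.23% of genes) and none lower (4.18%), 3 of the 7 (Palld, Pdlim7 and Vim) being at the level in the keratin-high gate alone. In fibroblasts 3 of 9 members (Palld, Myl9 and Vim) were at least 2-fold higher than in keratin-high cells, beside 18.8% of genes, Myl9 being at the level in the fibroblast gate alone, and Actn4 was at least 2-fold lower, beside 14% of genes.

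Across the range of Krt8 plus Krt18 the member levels were graded on both sides of the line of 50 that sets the gate. Cells outside the fibroblast, endothelial and myeloid gates were put into 11 keratin classes, from under 5 to at least 150 per 10000. Tpm1, Tpm2, Tpm4, Palld, Pdlim7, Actn1 and Actn4 were each higher in every class than in the class before it, in 10 of 10 steps, whereas Myl9 and Vim were higher in 6 of 10. The share of all genes that did so was not counted, and the members were chosen on the keratin contrast. From the lowest to the highest class Tpm1 went from 257 to 2344 CPM, Tpm2 from 1.92 to 830, Palld from 0.29 to 181, and Actn4 from 118 to 356. Just outside and just inside the gate, in the classes of 40 to 50 (383 cells) and 50 to 60 (292 cells), Tpm1 was at 1005 and 1107 CPM, Tpm2 at 132 and 169, Palld at 19.1 and 31.1, and Pdlim7 at 26.2 and 31.6. Vim was at 27.4 CPM just outside and 8.77 just inside, against the order of the other members. With the gate at 100 in place of 50 and the other gates kept under 25, the ratios of keratin-high to ATII cells were 123 for Tpm2, 102 for Palld and 73.2 for Pdlim7.

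**Figure D3:**
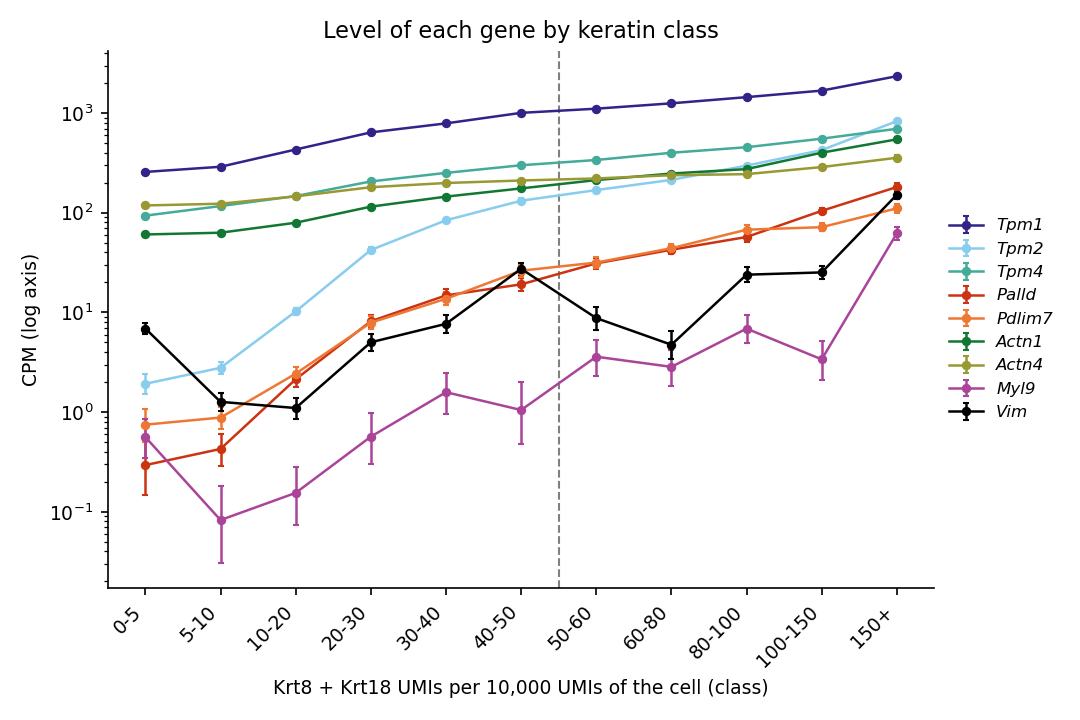
Level of each member (CPM, log axis, exact Poisson 95% intervals) in 11 classes of cells by Krt8 plus Krt18 UMIs per 10000; the dashed line marks the limit of the keratin-high gate at 50. Tpm1, Tpm2, Tpm4, Palld, Pdlim7, Actn1 and Actn4 are higher at each of the 10 steps, whereas Myl9 and Vim go up and down and reach 62.1 and 152 CPM in the last class. The share of all genes that rise at each step was not counted.

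Within the keratin classes of 50 to 100 and of 100 and above, cells with little Hopx, an ATI homeobox gene, held more Palld and Pdlim7 than cells with much. The same held for Vim in the class of 50 to 100. Among cells with Krt8 plus Krt18 of 50 to 100, Palld was at 54.4 CPM in the 417 cells with Hopx under 2, 32.3 in the 319 cells with Hopx of 2 to 15, and 11.7 in the 111 cells with Hopx of at least 15, a 4.64-fold difference between the ends (3.01 to 7.55). Pdlim7 was at 55.0, 39.9 and 19.0 CPM in the same cells, a 2.90-fold difference (2.05 to 4.22). Vim, which few cells held, was at 13.2, 10.0 and 4.46 CPM, a 2.96-fold difference (1.47 to 6.98). Tpm1 differed less, at 1340, 1197 and 968 CPM (1.38-fold, 1.32 to 1.46), as did Actn1, at 244, 251 and 206 CPM (1.19-fold, 1.06 to 1.32). Tpm2 (1.02-fold, 0.92 to 1.14), Tpm4 (1.02-fold, 0.94 to 1.11) and Actn4 (1.03-fold, 0.93 to 1.14) did not differ beyond counting error between the Hopx ends of this class. In the class of 100 and above, which had 16 cells at the high Hopx end, Palld was 5.31-fold higher (2.88 to 11.1) at low Hopx, Pdlim7 was at 96.1 against 32.0 CPM, and Tpm2 was 1.23-fold higher (1.04 to 1.46). Myl9 ran the other way there, at 20.3 CPM at low and 67.0 CPM at high Hopx, and Vim was highest in the middle class (48.2, 104 and 2.91 CPM). Single keratin-high cells held up to 30 Myl9 and 205 Vim UMIs, so these 2 orders may rest on few cells. Depth moved with Hopx, from a median of 26242 UMIs at low to 15346 at high Hopx in the class of 50 to 100, and its part in these differences was not tested. Keratin was not matched between Hopx classes within a keratin class. Palld itself went from 31.1 CPM at keratin of 50 to 60 to 57.1 CPM at 80 to 100, and the part of keratin was not tested either. At lower keratin the order was another: with Krt8 plus Krt18 under 10, Tpm1 was at 269 CPM at low and 482 CPM at high Hopx.

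**Figure D4:**
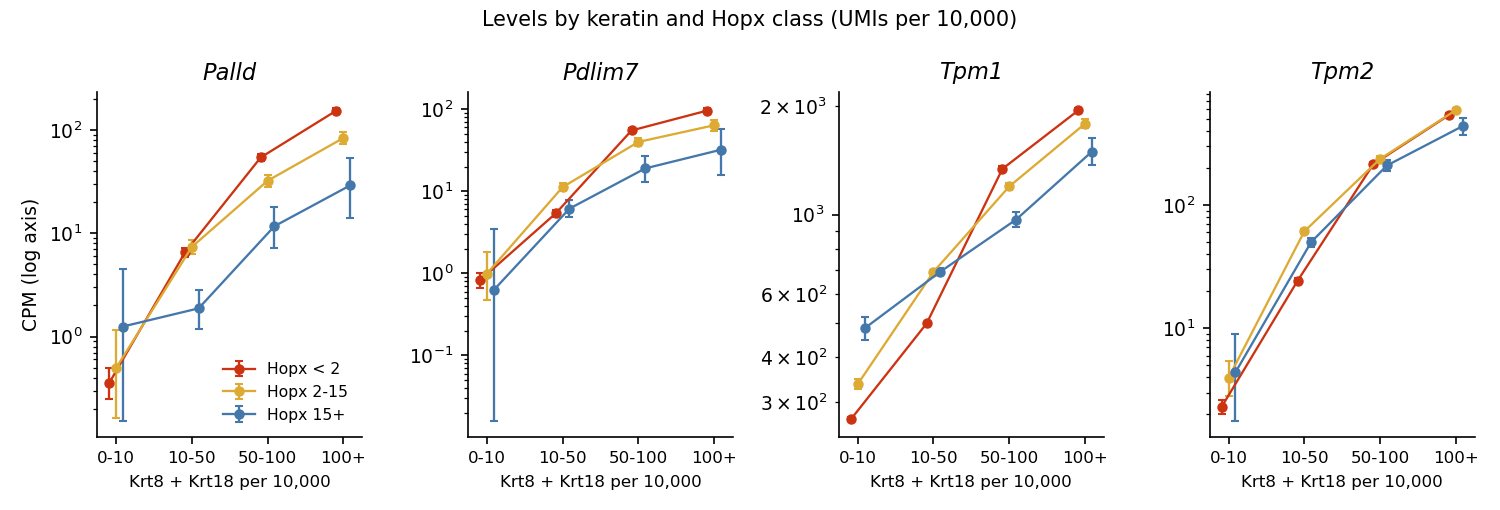
Palld, Pdlim7, Tpm1 and Tpm2 (CPM, log axis, exact Poisson 95% intervals) by class of Krt8 plus Krt18 and, in color, class of Hopx, both in UMIs per 10000. For Palld the low Hopx class is above the high one at 50 to 100 (54.4 against 11.7 CPM) and at 100 and above (155 against 29.1 CPM), whereas Tpm2 at 50 to 100 is at 214 CPM in the low and 209 CPM in the high Hopx class.

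Within the keratin-high gate the UMIs of most members were spread over many cells, and those of Vim and Myl9 were held by few. The 12 cells with most UMIs of a gene, 1% of the gate, held 5.02% of the Tpm1 UMIs, 5.49% for Tpm4, 4.82% for Actn4, 7.22% for Actn1, 11.7% for Tpm2, 12.0% for Pdlim7 and 17.0% for Palld. The same number of cells held 61.6% of the Myl9 UMIs and 68.3% of the Vim UMIs, and 1 cell was in both sets. Without these 12 cells Vim was at 8.92 CPM in the gate, under the level of 10 CPM at which a gene was counted, and without theirs Myl9 was at 3.74 CPM. The Vim-richest cells (Vim 1421 CPM) had 1 UMI of Col3a1, 3 of Mgp and 0 of Col1a1, Col1a2, Dcn, Pecam1 and Ptprc in all 12 together, none was in the fibroblast, endothelial or myeloid gate, and their Krt8 (7585 CPM) was above that of the other 1171 cells (4530 CPM). The Myl9-richest cells (Myl9 386 CPM) held 1626 CPM of Tpm2 and 565 CPM of Tagln, a smooth muscle actin cross-linker, against 303 and 6.39 CPM in the other cells. Acta2, the smooth muscle actin, was at 0 UMIs in them. Both sets were deep, with medians of 39035 and 38435 UMIs against 23490 in the whole gate, and the part of depth and of doublets, which were not called, was not tested.

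**Figure D5:**
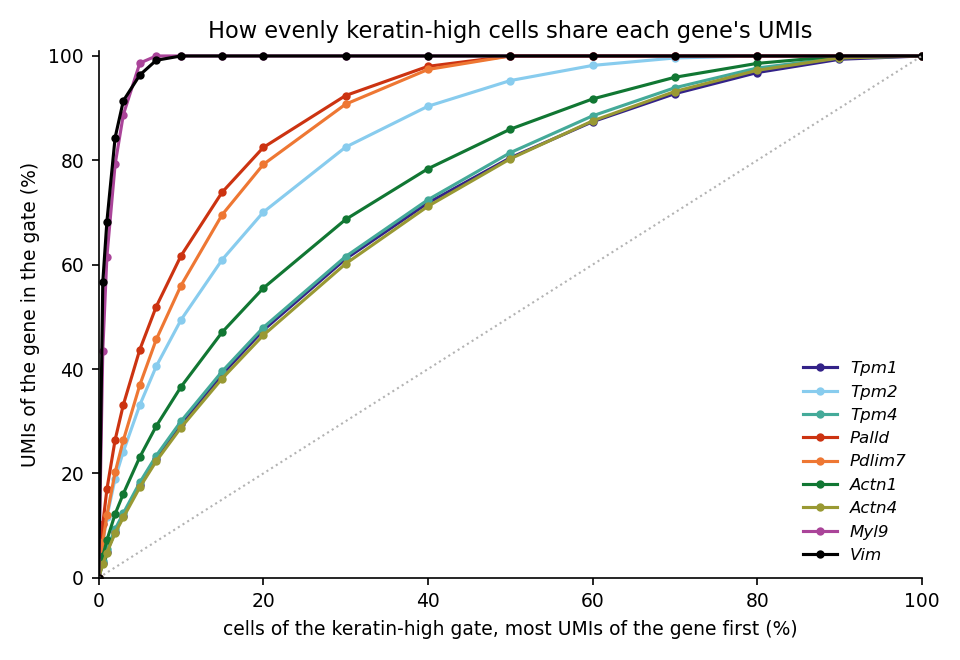
Cumulative share of each member's UMIs (y axis, percent) held by the keratin-high cells taken from those with most UMIs of the gene (x axis, percent of 1183 cells); the dotted diagonal is equal sharing. The Vim and Myl9 curves reach 68.3% and 61.6% at 1% of cells, while Tpm1, Tpm4 and Actn4 lie lowest, at 5.02%, 5.49% and 4.82%.

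The 4 genes of the fibroblast gate were at 4.05 CPM together in the keratin-high cells outside that gate, a level that the gate itself limits, since these cells hold fewer than 10 such UMIs each. At the ratio of each member to these genes in fibroblasts, that amount goes with 2.31% of the Vim, 0.92% of the Myl9 and 0.12% of the Palld level of keratin-high cells, and with less for the other members. With Mgp added to the 4 genes these shares were 1.56%, 0.63% and 0.08%, and the sum without Mgp was chosen after seeing the data. In ATII cells the 4 genes gave 69.4% for Myl9 and 11.7% for Vim, both under 5 CPM there.

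The number of members found per cell differed between gates, as the higher detection of single members alone can give. Whether members occur together beyond that was not tested. After thinning to 5000 UMIs, the median cell held UMIs of 2 members in the ATII gate, 3 in the ATI gate, 4 in the keratin-high gate and 5 in the fibroblast gate. At least 5 members were found in 0.561% of ATII (0.397 to 0.769, exact binomial), 3.21% of ATI (2.13 to 4.64), 40.7% of keratin-high (37.8 to 43.7) and 76.6% of fibroblast-gate cells (70.1 to 82.4). From cell to cell within the keratin-high gate the counts were sparse, and the 36 pairs of members had a median Pearson r of 0.09 and at most 0.24 at 5000 UMIs, over 1090 cells of 1 pooled matrix.

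The other genes of the actin cytoskeleton, a list of 73 grouped by role, were mostly higher in keratin-high than in ATII cells too, and of those at 10 CPM only Fhl2 had a wider contrast than Tpm2, Palld and Pdlim7. The list was drawn up by role, with earlier results of these data known. At 10 CPM in either gate, 63 were measured between keratin-high and ATII cells, of which 36 were at least 2-fold higher, beside 14.5% of all genes, 4 of them (Tagln, Pdlim3, Fhl2 and Diaph3) at that level in the keratin-high gate alone, and 1, the leukocyte plastin Lcp1, was at least 2-fold lower, beside 5.17% of all genes. Their median ratio was 2.42, and 25 were past the line relative to the median gene, beside 7.61% of all genes. Between ATI and ATII cells 26 of 61 were at least 2-fold higher, beside 11.5% of all genes, and 17 relative to the median gene, beside 6.41%, with Pdlim3 and Diaph3 at the level in the ATI gate alone. Both cytoplasmic actins were higher in keratin-high than in ATII cells, Actg1 by 3.46-fold and Actb by 2.95-fold. Of 11 cross-linkers 8 were past 2-fold, led by Tagln (15.4-fold, from 0.97 to 14.9 CPM), the filamin Flna (7.46-fold) and the plastin Pls3 (4.00-fold). Of the 4 PDZ-LIM relatives measured 3 were past 2-fold, Pdlim3 (7.40-fold), Pdlim1 (from 61.4 to 215 CPM) and Pdlim5 (3.06-fold).

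Focal adhesion genes past 2-fold numbered 6 of 10, or 3 relative to the median gene (all genes 14.5% and 7.61%, here and for the roles that follow), and were led by Fhl2, a LIM-only adaptor, which was 124-fold higher (89.8 to 175, from 0.24 to 29.9 CPM), zyxin (Zyx, 5.34-fold), vinculin (Vcl, 3.65-fold) and the integrin-linked kinase Ilk (2.53-fold). Non-muscle myosin genes were past 2-fold in 5 of 6 (Myh9 2.87-fold, Myl12a 2.55-fold, Myl6 2.55-fold, Myh14 2.33-fold), only 1 of which was past it relative to the median gene. The assembly and turnover genes counted 8 of 13, or 5 relative to the median gene, led by the formin Diaph3 (4.92-fold), gelsolin (Gsn, 4.45-fold), thymosin Tmsb10 (4.04-fold) and the capping subunit Capzb (3.41-fold). Of the 3 genes that tie actin to the membrane, Msn (5.25-fold) and Ezr (3.15-fold) were past the line and Rdx (1.13-fold) was not. None of Tpm3 (1.89-fold), Tmod3 (1.76-fold) and Tmod1 (0.95-fold), the other filament side and end binders measured, was past it.

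The roles parted when keratin-high cells were set beside ATI cells, where 13 of 63 list genes were at least 2-fold higher, beside 6.23% of all genes, and 3 lower (Tmod1, Pdlim3 and Limk1, beside 4.18% of all genes). Of the 13, Tagln and Fhl2 were at the level in the keratin-high gate alone. Cross-linkers made up 7 of the 13, from Tagln at 19.9-fold to Lasp1 at 2.01-fold. No non-muscle myosin gene and neither actin was past 2-fold, and the median log2 ratio of the myosin genes was -0.07. Among the members the ratio of keratin-high to ATI cells ran from 1.39 for Actn4, 2.11 for Tpm4 and 2.17 for Tpm1 to 38.3 for Palld. Tmod1, which caps slow-growing filament ends, stood at 90.9 CPM in ATI cells, 10.1 in ATII cells and 9.55 in keratin-high cells.

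Patterns like those of the members were looked for over 11 classes of epithelial cells, by keratin and Hopx, with at least 50 cells each. Over these classes Pearson's r on log2(CPM + 1) between the members' mean and each of 9190 other genes was highest for Naa20 (0.99), followed by Zyx, Ifi27l2b, Mal, Dhrs1, Card19, Paqr5, Abracl, Epcam and Cmpk1, the last at 0.99. Since the classes are set by keratin level and come from the same libraries, high values were common: 11.0% of the genes had an r of at least 0.9. The closest for single members were the GTPase exchange factor Cyth2 for Tpm1, Xpnpep1 and Tagln2 for Tpm2, the annexin Anxa2 and destrin (Dstn) for Tpm4, Sfn and Emp1 for Palld, Atp10a and Serp2 for Pdlim7, and Mal and Cast for Actn1. Those for Actn4 were Pkp3 and Btbd10, for Myl9 Phactr4 and Smim15, and for Vim Serpinb2 and Gas2l1, and the second for Tpm1 was Gipc1. Among the members, r over the classes was 0.99 between Tpm1 and Actn1 and 0.77 between Tpm2 and Vim.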

How the data were processed

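Cells of lung tumors from 6 mice had been sorted and sequenced by the authors. Alignment (mouse build mm10) and counting were done with Cell Ranger 3.0.2, per the submitters' processing notes. The deposited file holds raw UMI counts of 16017 cells and 31055 features, pooled over mice. The study removed stromal cells at a later step, and they are still in this matrix. UMIs were summed over each gate and expressed as CPM with exact Poisson 95% intervals. Ratios carry exact conditional binomial intervals and shares exact Clopper-Pearson intervals, all covering counting error only. With 1 pooled sample no test was possible. For shares of cells, each cell was thinned to 5000 UMIs, leaving out 203 ATII, 115 ATI, 93 keratin-high and 39 fibroblast-gate cells. Doublets were not called. Cells in 2 gates counted in both (8 ATII and 2 keratin-high cells were also in the fibroblast gate). Named were all 9 members, up to 4 list genes per role past 2-fold (keratin-high over ATII, largest first), 10 genes most like the members' mean and 2 most like each member, and further list genes where a count was small or a contrast was drawn, chosen after their values were seen. Some results on the list are not reported here. Members and lists were chosen with earlier results of these data known. Gene coordinates are from GENCODE M21 (GRCm38), which held 31011 of the feature IDs, and promoters from RefSeq (GRCm38.p6). Ratios were tested on simulated counts. Python 3.11.15, numpy 2.4.6, scipy 1.17.1 and pandas 2.3.3 were used.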

Additional observations from a re-analysis of the deposited data

How the results depend on the processing

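The counts of members past 2-fold were recomputed under 14 other settings, 1 of them chosen after seeing the data (without the 1% of cells with most UMIs of the gene, in each gate). The count for keratin-high over ATII cells ran from 6 to 9, for keratin-high over ATI cells from 6 to 8, and for fibroblasts over keratin-high cells it was 3 throughout. The ATI over ATII count of 2 was 1 with the mean over cells, keratin limits of 100 and 25, Hopx of at least 30, endothelial and myeloid cells left out, thinned cells, ratios relative to the median gene, or gate genes out of the totals, since Tpm1 (1.54 to 2.15-fold over all 14) was then under the line, and it was 4 with a level of at least 1 CPM. The list count for ATI over ATII cells was 17 relative to the median gene. Of 501 recomputed member ratios, 354 stayed within the counting interval and none that was past 2-fold turned its direction. Ratios near 1 did: ATI over ATII cells ran from 0.61 to 1.86 for Palld and from 0.33 to 2.58 for Vim, and fibroblasts over keratin-high cells ran from 0.65 to 1.06 for Actn1 and was 0.99 for Pdlim7 with keratin limits of 100 and 25. Myl9 could not be given a ratio in 3 further cases, having 0 UMIs in ATII and in ATI cells without its richest cells. Without those cells, the ratio of keratin-high to ATII cells was 16.2 for Vim, 77.8 for Palld and 70.6 for Pdlim7, and with the stricter Sftpc limit for ATII it was 63.5 for Palld and 16.5 for Vim. With Hopx of at least 30 for ATI, Pdlim7 was 1.96-fold over ATII cells. Keratin-high over ATI cells was 66.9 for Palld with Hopx of at least 30 and 70.1 without its richest cells. Depth limits Myl9, Palld and Vim in ATI cells, with 14, 24 and 58 UMIs. No paired analysis was possible because nothing in the files used here ties a cell to a mouse.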

Other observations

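Endothelial cells (116, by Pecam1 and related genes) and myeloid cells (76) had passed the sort, and their member levels set them apart from the mesenchymal gate. Vim was at 2610 CPM in endothelial and 4371 CPM in myeloid cells, above the 2126 CPM of fibroblasts, whereas Palld was at 16.5 and 1.07 CPM, Tpm2 at 16.5 and 1.07 CPM, and Myl9 at 12.2 CPM and 0 UMIs. The endothelial values rested on few cells: 1 cell held 17 of 31 Palld UMIs, 1 held 12 of 23 Myl9 UMIs, and 2 held 64.5% of the Tpm2 UMIs. Of the endothelial cells, 4 were also in the fibroblast gate. Pdlim7 was at 73.3 CPM (61.6 to 86.6) in endothelial cells, whose interval overlapped that of fibroblasts. Tpm3 made up 53.3% of tropomyosin UMIs in endothelial and 63.9% in myeloid cells, where Tpm1 made up 18.0% and 12.1%. Actn4 was at 218 CPM in endothelial cells, between its ATI and keratin-high levels. The 2843 cells in none of the 4 gates, with a median of 14.3 Krt8 plus Krt18 UMIs per 10000, held 615 CPM of Tpm1, 9.63 of Palld and 15.2 of Pdlim7. Their Vim level of 272 CPM included 105 cells of the endothelial and 72 of the myeloid gate.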
